A study of Homo sapiens with 12 samples.

Results

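Here 4 arms of HEK293 cells are put in an order from MED12 knockdown to overexpressed full-length MED12, and genes that rise or fall along it are described. The labels name the arms and give no MED12 level, so the order of the 2 overexpression arms was set for the comparison. HEK293 is an established line of human embryonic kidney cells. The arms were a plasmid making 1 hairpin RNA (shRNA) against MED12, scored 1; nuclear GFP alone, scored 2; overexpressed MED12 lacking its C-terminal PQL and Opa domains, scored 3; and overexpressed full-length MED12, scored 4. Each arm had 3 biological replicates, 12 arrays in all. Cells in every arm were transfected by lipofection after 24 hours of growth, harvested 48 hours later and sorted for 20 minutes as viable, GFP-positive cells. GFP alone and both MED12 constructs were in pcDNA5/TO, and each MED12 construct carried nuclear GFP at its N-terminus and an engineered Kozak sequence. The hairpin was driven by the H1 promoter in another plasmid, peGFP-C1, and the groups include 0 control hairpins, so along the first step of the order vector, hairpin and MED12 level cannot be told apart. Score 3 also differs from the others in the protein it makes, since it lacks named domains.

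The values are log2 signals, 1 per array and row, where a row summarises the probes of a gene or of several neighbouring genes. Of 22011 rows, 14432 had 1 gene symbol. A gene was called steady when its 4 arm means stood in strict rising or strict falling order from shRNA to full-length MED12. Leaving out MED12 itself, 2034 of these 14432 rows were steady, 856 rising and 1178 falling. These are 5.93% and 8.16% of the rows with 1 symbol, and the steady order, which is only an order of means, was found rising in 5.80% and falling in 7.85% of all rows. The test of the trend was a linear contrast over the arm order, the slope in log2 units per step, set against the spread between replicates in a two-sided limma test; p-values were adjusted by Benjamini-Hochberg across the whole table and called at 0.05.

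MED12 belongs to the kinase module of Mediator, a complex that carries signals from transcription factors to RNA polymerase II. Of the 5 steady genes that passed, 4 encode chaperones or co-chaperones. HSP70 proteins bind unfolded stretches of other proteins and release them in a cycle driven by ATP; DNAJ (HSP40) proteins deliver the clients and start the ATP hydrolysis, and HSP110 proteins exchange the nucleotide. Some genes of these families are switched on by heat shock factors, which bind heat shock elements, inverted repeats of a short unit, in promoters. Whether the genes described here answer to these factors was not tested. Interferon-stimulated genes, by contrast, carry response elements that are read by STAT complexes and interferon regulatory factors after cells sense foreign nucleic acid or interferon.

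The promoter stretches below belong to genes whose values along the order are described next. They are from RefSeq (build GRCh38.p14), are printed 5′ to 3′ on the gene's strand, and the capitals mark a match to the heat shock element searched. These 4 genes are the ones with a match among the 5 steady genes that passed the trend test.
DNAJB1, chr19:14518447-14518494, minus strand: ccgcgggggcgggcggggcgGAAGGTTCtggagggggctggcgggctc
DNAJB1, chr19:14518417-14518464, minus strand: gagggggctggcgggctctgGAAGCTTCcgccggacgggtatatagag
HSPA1L, chr6:31815417-31815464, minus strand: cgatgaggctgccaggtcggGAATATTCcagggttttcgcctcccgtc
ZFAND2A, chr7:1160340-1160387, minus strand: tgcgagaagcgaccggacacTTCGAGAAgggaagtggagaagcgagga
HSPA4L, chr4:127782132-127782179, plus strand: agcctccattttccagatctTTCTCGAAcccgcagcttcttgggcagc

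The search covered 300 bases per window, 250 before to 50 after each annotated start. The short element was GAANNTTC or TTCNNGAA, each of which reads the same on both strands. The capitals begin 77 and 47 bases before the start in DNAJB1, 161 in HSPA1L, 171 in ZFAND2A and 170 in HSPA4L. The window of HSPH1, the other steady gene that passed, held no such letters. Of 14233 genes with 1 symbol on the array 11385 had at least 1 window, and of these 14.9% held the short element, and 11.3% of their windows did. It stood in 4 of the 5 steady genes that passed and in 8 of the 12 steady rising genes named here. It also stood in 2 of the 9 named steady falling genes with a window. Of the 4 genes with a window among those that passed by falling, 2 held it. Among all steady genes with an unadjusted trend p under 0.05 it stood in 17.3% of 214 rising genes and in 18.3% of 109 falling genes with a window, so these wider sets lay near each other and near the share of all genes. Genes with several windows have more chances of a match, and a match is no evidence that a factor binds there.

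MED12 itself followed the order, which checks the labels of the shRNA, GFP and overexpression arms. Its log2 values were 3.63, 3.63 and 3.74 in the shRNA arrays, 4.03, 4.56 and 4.66 with GFP, 8.62, 8.90 and 9.25 with the deletion construct, and 10.63, 10.66 and 10.75 with full-length MED12. No array overlapped its neighbouring arm at any step. The arms were unevenly spaced in MED12 RNA: the steps between means were 0.75, 4.51 and 1.76, and the row departed from a straight line (limma, adjusted p = 0.00952). Which part of MED12 its probes read is not given in the sources used here, so the levels of the shorter and the full-length construct are not strictly comparable. These levels therefore do not check the order set for those arms. Levels of the protein were not analysed here.

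The trend test passed 17 of 22011 rows, 0.0772%, and 11 of them rose (0.05%) and 6 fell (0.0273%). At an unadjusted p under 0.05, 1026 rows rose (4.66%) and 755 fell (3.43%). Without MED12, 12 of the passing rows had 1 symbol. Steady arm means were found in 5 of these 12, all rising: DNAJB1, HSPH1, HSPA1L, ZFAND2A and HSPA4L. The other 7 were SKP1, which rose, and 6 interferon-stimulated genes, which fell, and none of these 7 had its 4 means in order. Among the 1178 steady falling genes, 0 passed with limma, against 164 at an unadjusted p under 0.05. For the 856 steady rising genes the count at that unadjusted p was 261. Of all 14432 rows with 1 symbol, MED12 included, 584 rose and 373 fell at that p. Steady order and slope come from the same means, so a steady set holds more small p-values by its selection.

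**Figure D1:**
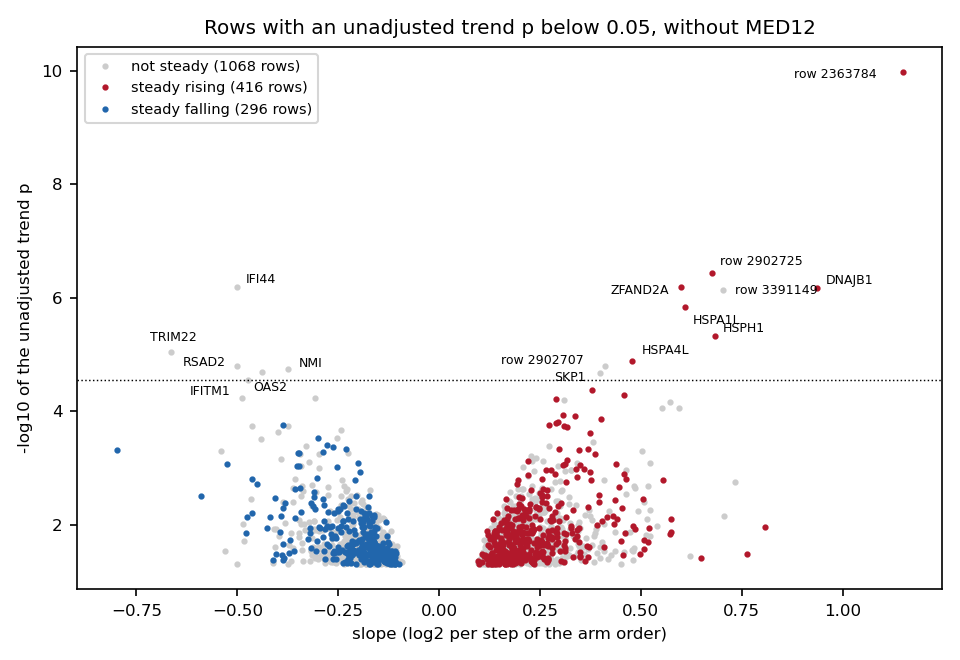
Each point is 1 row with an unadjusted trend p under 0.05, MED12 left out; the x axis is the slope in log2 units per step of the arm order and the y axis is −log10 of the unadjusted p. The dotted line marks the largest p that passed after adjustment. The red points above it are DNAJB1, HSPH1, HSPA1L, ZFAND2A, HSPA4L and 2 rows with several symbols; every point above it on the falling side is grey, that is, not steady.

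DNAJB1, an HSP40 co-chaperone that delivers clients to HSP70, had the steepest slope of all steady genes. Its log2 values were 2.64, 3.65 and 2.77 with shRNA, 3.41, 3.88 and 3.86 with GFP, 3.90, 4.52 and 4.63 with the deletion construct, and 5.59, 5.86 and 6.35 with full-length MED12. The shRNA and GFP arrays overlapped, while GFP lay below the deletion construct and the deletion construct lay below full-length MED12 in every array. The slope was 0.94 ± 0.10 log2 per step (SE; adjusted p = 0.00228), a 7.52-fold difference between the means of the end arms. The last step, from the deletion construct to full-length MED12, was the largest, at 1.58 against 0.69 and 0.64 for the earlier steps (SE 0.30 each). In RNA from a whole sorted sample, a higher level in each cell and a larger share of cells with a high level cannot be told apart.

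HSPH1 is an HSP110 protein that exchanges the nucleotide of HSP70. Its log2 values were 4.80, 5.96 and 5.32 with shRNA, 5.86, 6.36 and 6.34 with GFP, 6.34, 6.77 and 6.85 with the deletion construct, and 7.56, 7.39 and 7.49 with full-length MED12. Only the last step was free of overlap, since the lowest GFP array lay below the highest shRNA array and the lowest deletion array below the highest GFP array. Its slope was 0.68 ± 0.085 per step (SE; adjusted p = 0.0115), 4.35-fold between the end arms, with steps of 0.82, 0.47 and 0.83 (SE 0.27).

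HSPA1L, a member of the HSP70 family, gave 3.21, 2.62 and 3.23 with shRNA, 3.40, 3.87 and 3.90 with GFP, 4.37, 4.04 and 4.20 with the deletion construct, and 4.66, 5.04 and 4.97 with full-length MED12. No neighbouring arms overlapped, so all 12 arrays stood in the order of the arms. The slope was 0.61 ± 0.07 per step (SE; adjusted p = 0.00409), 3.66-fold between the end arms, and the 3 steps were of like size at 0.71, 0.48 and 0.68 (SE 0.21). HSP70 genes are close in sequence, and whether the probes of this row also read RNA of its relatives was not tested.

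ZFAND2A, an arsenite-inducible zinc finger protein that binds the proteasome, rose early and levelled off. It gave 3.96, 4.58 and 4.18 with shRNA, 5.09, 4.87 and 5.08 with GFP, 5.46, 5.85 and 5.91 with the deletion construct, and 5.91, 6.19 and 5.88 with full-length MED12. The first and middle steps were free of overlap and measured 0.78 and 0.73, whereas the arrays of the deletion construct and of full-length MED12 overlapped and differed by 0.25 (SE 0.19 each). The slope was 0.60 ± 0.06 per step (SE; adjusted p = 0.00228), 3.38-fold between the end arms.

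HSPA4L, another HSP110 family member, gave 3.22, 3.95 and 3.61 with shRNA, 4.10, 4.21 and 4.26 with GFP, 4.12, 4.60 and 4.72 with the deletion construct, and 5.03, 5.19 and 5.05 with full-length MED12. GFP and the deletion construct overlapped, and the other neighbouring arms did not. The slope was 0.48 ± 0.07 per step (SE; adjusted p = 0.0257), 2.82-fold between the end arms. It was the last steady gene to pass, and the next by p, TENT5C, missed the threshold at an adjusted p of 0.0512. For none of the 5 genes did the departure from a straight line reach an unadjusted p under 0.05, and the values ran from 0.11 for DNAJB1 to 0.817 for HSPA1L.

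**Figure D2:**
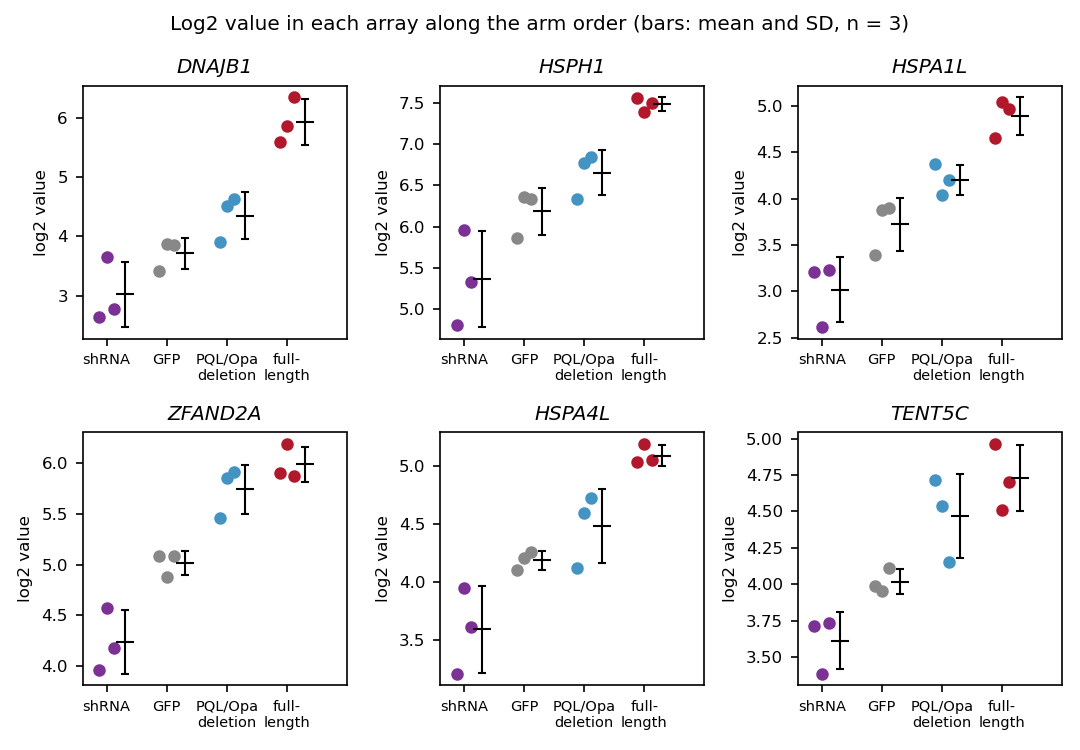
Log2 value of each array (points) with the mean and SD of 3 arrays (bars) in the 4 arms for the 5 steady genes that passed and for TENT5C, which did not pass. HSPA1L has no overlap between neighbouring arms, ZFAND2A levels off between the last arms, and in DNAJB1 the last step is the largest.

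The hold of the 5 calls on single arrays and arms differed. ZFAND2A, DNAJB1 and HSPA1L passed in all 12 fits that left out 1 array. HSPH1 passed in 8 of 12, with slopes from 0.60 to 0.77, and was lost without shRNA replicate 3 and without each of the full-length replicates. HSPA4L passed in 4 of 12, with slopes from 0.42 to 0.53, and was lost without shRNA replicates 1 and 3, GFP replicates 2 and 3, deletion replicate 2 and each full-length replicate. Arrays also differed in their spread of log2 values, which ran from 1.34 to 1.60 (SD over rows), and replicate 1 was the narrowest array of every arm. Without the 3 narrowest of all, replicate 1 of the shRNA, GFP and deletion arms, all 5 genes still passed, with slopes of 0.89 for DNAJB1, 0.60 for HSPH1, 0.61 for HSPA1L, 0.58 for ZFAND2A and 0.43 for HSPA4L. With MED12's own mean level in place of the even arm scores 8 rows passed, all by rising: DNAJB1, ZFAND2A, HSPA1L and HSPH1 were among them, while HSPA4L, SKP1 and the 6 falling genes described further on were lost.

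The trend could also be read within the 3 arms that share a vector, which leaves out the hairpin. There the slope was 1.11 for DNAJB1 (limma, adjusted p = 0.0433), 0.65 for HSPH1 (0.223), 0.58 for HSPA1L (0.274), 0.49 for ZFAND2A (0.447) and 0.45 for HSPA4L (0.743). The sizes were thus close to those over 4 arms, but with 9 arrays DNAJB1 alone passed. Without the full-length arm the slopes ran from 0.44 for HSPA4L to 0.75 for ZFAND2A, and none of the 5 passed (adjusted p from 0.128 to 0.856). Without the deletion arm, whose protein differs, DNAJB1, HSPA1L and ZFAND2A passed, at slopes of 0.99, 0.62 and 0.57, and HSPH1 and HSPA4L had an adjusted p of 0.0515 each. Without GFP HSPA4L alone was lost (0.0667).

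**Figure D3:**
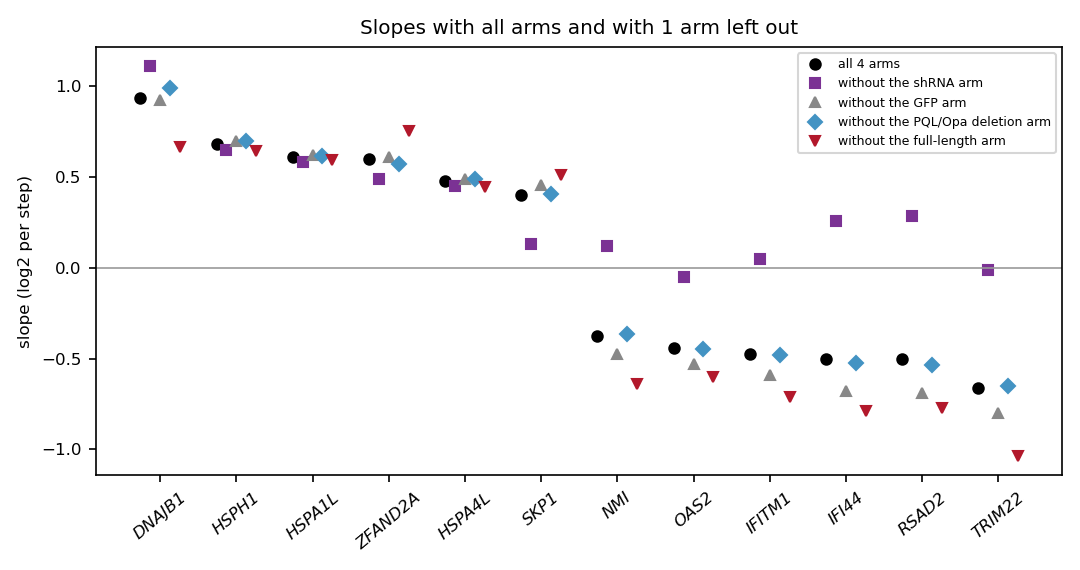
Slope in log2 units per step (y axis) for the 12 genes with 1 symbol that passed the trend test (x axis), with all 4 arms and with each arm left out in turn. The 5 steady genes stay between 0.44 and 1.11 in every fit, while without the shRNA arm the falling genes lie between -0.05 and 0.29 and SKP1 at 0.13.

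A further 7 steady rising genes had the next smallest p and did not pass. The HSP40 co-chaperone DNAJB4 had a slope of 0.46 (limma, adjusted p = 0.0591), with arm means of 3.92, 4.45, 4.70 and 5.37. BAG3, a nucleotide exchange factor that links HSP70 to autophagy, had a slope of 0.31 (0.0930) and means of 3.94, 4.23, 4.45 and 4.89. HSPA8, the constitutive HSP70 protein, had a slope of 0.29 (0.111). Its arrays gave 8.57, 9.03 and 8.62 with shRNA, 8.55, 8.84 and 8.87 with GFP, 9.30, 9.57 and 9.26 with the deletion construct, and 9.49, 9.53 and 9.52 with full-length MED12. The GFP mean of HSPA8 was 0.01 above the shRNA mean, which puts it just inside the steady set, and its deletion mean was 0.62 above GFP (SE 0.17).

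The promoter of HSPA8 shows the longer form of the element, 3 units in a row, GAANNTTCNNGAA or its reverse complement TTCNNGAANNTTC, which contains the short one. It held 2 such matches, 230 and 55 bases before the start, where 0.509% of the array's genes with a window held any. Among other list genes the longer form also stood in CHORDC1, DNAJA1, HSP90AA1 and SERPINH1. CHORDC1 and DNAJA1 had steady means and did not pass, and HSP90AA1 and SERPINH1 were not steady. The HSPA8 matches are printed as the comparison to the shorter elements of the steeper genes above, with the capitals marking the 3 units.
HSPA8, chr11:123062334-123062386, minus strand: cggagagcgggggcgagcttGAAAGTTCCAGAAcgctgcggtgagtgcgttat
HSPA8, chr11:123062159-123062211, minus strand: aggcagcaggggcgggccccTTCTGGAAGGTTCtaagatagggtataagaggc

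The other 4 of these genes are not chaperones. TENT5C, a poly(A) polymerase that stabilises some messages, gave 3.71, 3.39 and 3.73 with shRNA, 3.98, 3.95 and 4.11 with GFP, 4.72, 4.54 and 4.15 with the deletion construct, and 4.96, 4.51 and 4.70 with full-length MED12. Its slope was 0.38, and only the last of its steps had overlapping arrays. POLR1F, a subunit of RNA polymerase I, had means of 4.33, 4.70, 5.01 and 5.19 and a slope of 0.29 (adjusted p = 0.0607). MRPL18, a protein of the mitochondrial ribosome, had means of 5.01, 5.39, 5.69 and 6.24 and a slope of 0.40 (0.104). GMNN, which encodes geminin, the inhibitor of replication licensing, had a slope of 0.29 (0.111), with steps of 0.74, 0.04 and 0.17, so its means differed mainly between shRNA and GFP.

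**Figure D4:**
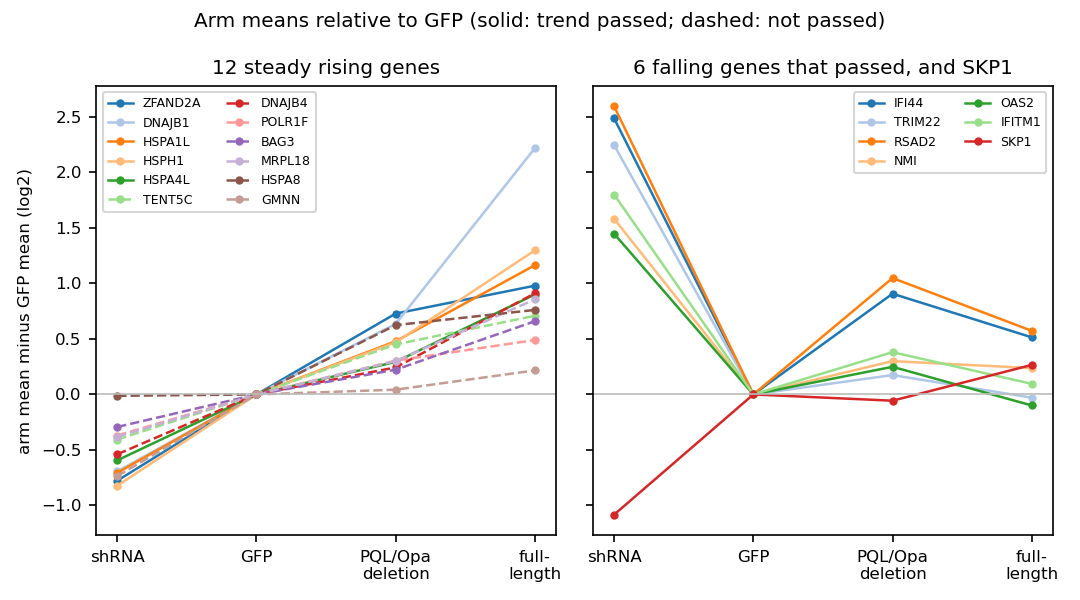
Arm means minus the GFP mean in log2 units (y axis) along the arm order (x axis) for the 12 named steady rising genes (left) and for the 7 genes that passed without steady means (right); solid lines passed the trend test and dashed lines did not. DNAJB1 ends highest on the left, while on the right the falling genes drop from shRNA to GFP and come up again with the deletion construct.

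Complete separation of all 12 arrays by arm was seen in 4 rows, 0.0182% of all, and 0 rows showed it in falling order. They were MED12, HSPA1L, row 2363784 and TRMT10A, a tRNA methyltransferase, which was singled out after its values were seen. TRMT10A had arm means of 2.57, 2.76, 2.93 and 3.17 and a slope of 0.20 that did not pass (limma, adjusted p = 0.325). Row 2363784 has several symbols, so no gene can be named for it. It had the steepest slope after MED12, 1.15 per step (adjusted p = 1.14e-06), with means of 3.34, 4.45, 5.49 and 6.83 and steps of 1.11, 1.03 and 1.34. Of the other 3 passing rows with several symbols, row 2902725 was steady, with means of 4.48, 5.35, 6.32 and 6.41, and rows 2902707 and 3391149 were not.

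The steady falling genes had smaller slopes and lower signals as a set. The median slope was -0.09 among the 1178 falling genes and 0.13 among the 856 rising ones, with median log2 signals of 2.95 and 4.29. Signals of different rows depend on their probes and are not amounts of RNA. A slope above 0.3 in size was found for 35 rising and 11 falling genes, against 94 of all 14431 rows with 1 symbol, MED12 left out. In both sets the first step, from shRNA to GFP, was the most frequent largest step, in 45.4% of rising and 49.3% of falling genes, against 44.1% of all rows with 1 symbol. The difference in signal goes with a feature of all rows. The median slope ran from -0.06 in decile 1 of the rows by mean signal, the lowest, to 0.07 and 0.06 in deciles 9 and 10, and the mean SD over rows per array from 1.47 with shRNA to 1.54 with full-length MED12. In decile 1, 1.59% of rows rose and 12.7% fell steadily, and in decile 10, 12.9% rose and 3.59% fell. The steady share of all rows was 13.6%, 11.7% after quantile normalization and 8.7% without the 3 narrowest arrays.

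The 12 steady falling genes with the smallest p are given as values, since none passed. SAMD9L, an interferon-inducible antiviral gene, gave 2.98, 2.77 and 3.18 with shRNA, 2.45, 2.03 and 1.92 with GFP, 2.29, 1.86 and 1.99 with the deletion construct, and 2.04, 2.05 and 1.93 with full-length MED12. Its slope was -0.30 (limma, adjusted p = 0.152), and -0.84 of the difference lay on the first step. BST2, the tetherin gene, whose protein holds budding virus at the cell surface, had means of 3.12, 2.29, 2.29 and 2.19 and a slope of -0.28 (0.192). For both, the shRNA arrays stood above all others and the 3 arms in the shared vector overlapped. Both are interferon-stimulated, and the order of their means after the first step is within the spread of replicates.

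LCN12, a lipocalin gene, had differences spread over all 3 steps. Its values were 5.72, 5.94 and 5.91 with shRNA, 5.32, 5.36 and 5.50 with GFP, 5.40, 4.57 and 5.38 with the deletion construct, and 4.48, 4.80 and 5.10 with full-length MED12. The slope was -0.35 (limma, adjusted p = 0.204), with steps of -0.46, -0.28 and -0.32 (SE 0.23), and only shRNA and GFP were free of overlap. OSM, the cytokine oncostatin M, had a slope of -0.31 (0.397) with no step free of overlap, and KIF2B, a kinesin that takes microtubules apart, one of -0.17 (0.421). The olfactory receptor genes OR5AR1 and OR5D14 had slopes of -0.23 (0.197) and -0.31 (0.422), with -0.58 and -0.86 on the first step. DSCR9 (slope -0.29), KRTAP5-1 (-0.35), PRUNE2 (-0.20), SLC25A16 (-0.25) and ADIG (-0.20) complete the 12, at adjusted p from 0.204 to 0.273. KRTAP5-1, PRUNE2 and SLC25A16 each have another row, whose slopes were -0.0015, -0.16 and -0.099, so the rows of KRTAP5-1 and SLC25A16 disagreed in size.

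The 6 genes that passed by falling belong to the interferon list, and their fall was a drop between the first arms rather than a steady decline. IFI44, an interferon-induced gene, gave 5.54, 5.98 and 5.66 with shRNA, 3.12, 3.39 and 3.21 with GFP, 4.03, 4.17 and 4.24 with the deletion construct, and 3.82, 3.85 and 3.59 with full-length MED12. The shRNA arrays lay above every other array, and GFP, not full-length MED12, was the lowest arm. The slope was -0.50 ± 0.05 (SE; limma, adjusted p = 0.00228), and the departure from a line passed as well (adjusted p = 0.00306). Departure passed in 4 of 22011 rows, 0.0182%: IFI44, MED12, RSAD2 (adjusted p = 0.0170) and IFIT2 (0.0329).

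RSAD2, the gene of the antiviral enzyme viperin, had the same shape, with means of 6.28, 3.69, 4.73 and 4.26 and a slope of -0.50 (limma, adjusted p = 0.0270). TRIM22, an antiviral ubiquitin ligase, had means of 4.59, 2.34, 2.52 and 2.31 and a slope of -0.66 (0.0196). NMI, a partner of STAT factors, had means of 3.52, 1.94, 2.24 and 2.17 and a slope of -0.37 (0.0283). OAS2, an oligoadenylate synthetase that switches on RNase L, had means of 4.05, 2.60, 2.85 and 2.50 and a slope of -0.44 (0.0293). IFITM1, a membrane protein that hinders virus entry, had means of 5.31, 3.51, 3.89 and 3.60 and a slope of -0.47 (0.0369). In all 6 the deletion construct stood above GFP and above full-length MED12 by its mean. Within the 3 arms of the shared vector the slopes were 0.26 for IFI44, 0.29 for RSAD2, 0.12 for NMI and 0.05 for IFITM1, the opposite sign, and -0.01 for TRIM22 and -0.05 for OAS2. Of the 12 fits without 1 array, IFI44 passed in 12, TRIM22 in 8, RSAD2 in 6, NMI and OAS2 in 3 each and IFITM1 in 0.

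These genes carry the element searched for interferon responses, GAAANNGAAA or TTTCNNTTTC, in all 4 that had a window: IFI44, RSAD2, NMI and IFITM1. The share was 4.22% of the array's genes with a window, and 0 of the 12 steady rising genes held it. BST2 was the 1 holder among the 9 named steady falling genes with a window, and SAMD9L's window held none. Among steady rows with an unadjusted p under 0.05 the share was 1.87% of 214 rising and 4.59% of 109 falling genes with a window. IFITM1 and BST2 each held 2 matches in their window. The stretches of IFI44, which had the smallest p of the 6, and of IFITM1 and BST2 are printed with 1 match each in capitals. These begin 60, 40 and 130 bases before the start. The IFI44 match also lies 18 bases before another annotated start of the gene. The other BST2 match begins 124 bases before the start, overlaps the printed one and is left partly in lower case.
IFI44, chr1:78649751-78649800, plus strand: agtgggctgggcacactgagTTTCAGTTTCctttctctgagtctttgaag
IFITM1, chr11:313980-314029, plus strand: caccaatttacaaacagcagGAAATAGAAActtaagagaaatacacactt
BST2, chr19:17405731-17405780, minus strand: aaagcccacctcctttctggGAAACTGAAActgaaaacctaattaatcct

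SKP1, a core subunit of SCF ubiquitin ligases, was the passing gene with 1 symbol that rose without steady means. It gave 5.30, 5.18 and 5.20 with shRNA, 6.50, 6.25 and 6.18 with GFP, 6.26, 6.25 and 6.25 with the deletion construct, and 6.72, 6.85 and 6.15 with full-length MED12. The hairpin arrays lay below all others, while the other 3 arms overlapped. Its slope was 0.40 (limma, adjusted p = 0.0293) and 0.13 without the shRNA arm, and the middle step of -0.06 keeps it just outside the steady set. It passed in 2 of 12 fits without 1 array, with slopes from 0.36 to 0.46, and was lost with straight-line regression, with an intensity trend, after quantile normalization and without the 3 narrowest arrays.

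The other genes of the chaperone system were read from 5 lists that were chosen with earlier results of these data known, so their counts are descriptions. Of 75 listed genes 54 had a row with 1 symbol, and 43 of these had a slope above 0, against 43.9% of all rows. Their median slope was 0.12, against -0.01 over all rows. The sign of the slope went with signal: 24.7% of rows were above 0 in decile 1, and 60.5%, 75.8% and 65.4% in deciles 8, 9 and 10. The median signal of the 54 genes, 4.41, lay in decile 8, where the median slope was 0.02. The shares of all rows given here and below are not matched for signal. An unadjusted p under 0.05 was reached by 16 rising and 0 falling genes (4.66% and 3.43% of all rows). Steadily rising means were found in 19 of the 54, against 5.80% of all rows and 8.91% of the rows in decile 8. The 5 that passed are those described above. The mean of the 54 genes relative to GFP was -0.38, 0.05 and -0.23 in the shRNA arrays, -0.22, 0.10 and 0.12 with GFP, 0.01, 0.21 and 0.19 with the deletion construct, and 0.31, 0.33 and 0.29 with full-length MED12. The full-length arrays were the highest, and the other arms overlapped, with the narrow replicate 1 arrays lowest in each of those arms.

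By role, the HSP70 and HSP110 list was the most uniform, with 9 of 9 measured genes above 0 (43.9% of all rows) and a median slope of 0.29. At an unadjusted p under 0.05, 6 of its genes rose (4.66% of all rows). Beyond the genes above it included HSPA13 at 0.26, HSPA14 at 0.13 and HSPA4 at 0.12. Among 15 DNAJ genes 13 were above 0 (43.9% of all rows), with a median of 0.10. DNAJB1 and DNAJB4 stood far from the rest, and DNAJA1 came next at 0.26. The median of the DNAJ list was 0.05 without the shRNA arm. The HSP90 group had 4 of 7 above 0 (43.9% of all rows) and a median of 0.12, which was 0.03 without the shRNA arm. HSP90AA1, the inducible HSP90, had means of 9.14, 9.63, 9.13 and 9.70 and a slope of 0.12 (limma, adjusted p = 0.639), with the deletion construct as low as shRNA. Its co-chaperones FKBP4 and STIP1 had slopes of 0.40 (0.512) and 0.23 (0.577).

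Small heat shock proteins and chaperonins had 10 of 13 genes above 0 (43.9% of all rows) and a median of 0.13. The median was 0.07 with the array SD as a covariate, 0.03 without the 3 narrowest arrays and 0.04 without the shRNA arm. SERPINH1, the collagen chaperone, had a slope of 0.19 (limma, adjusted p = 0.421) and CCT7, a chaperonin subunit, of 0.27 (0.567), neither of them steady. Heat shock factors and genes for the clearance of damaged proteins had 7 of 10 above 0 (43.9% of all rows) and a median of 0.06. With the array SD as a covariate the median was -0.01 with 4 of 10 above 0 (51.3% of all rows in that fit). UBB, a polyubiquitin gene, had a slope of 0.31 (0.0607), but its means of 8.54, 8.63, 9.39 and 9.32 made 1 step, at the deletion construct. HSF1, the main heat shock factor, had a slope of -0.06 (0.859). Chaperones and stress genes of the endoplasmic reticulum had 11 of 14 above 0 (43.9% of all rows) and a median of 0.03, with HERPUD1 at 0.27 (0.263) and HSPA5 at 0.08 (0.868). That median was -0.03 with the array SD as a covariate (5 of 14 above 0, against 51.3% of all rows). Without the 3 narrowest arrays it was -0.0084 (6 of 14, against 49.6%).

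**Figure D5:**
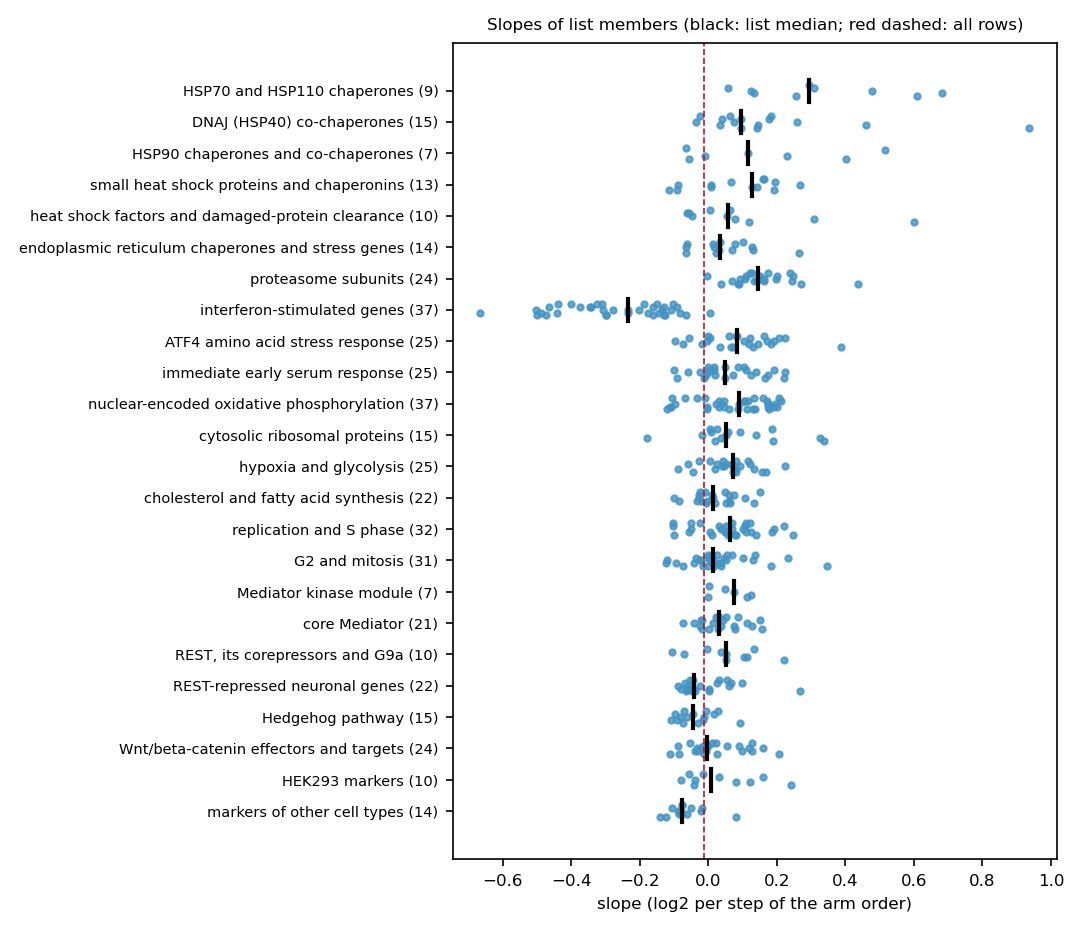
Slopes in log2 units per step (x axis) of the measured members of each gene list (points; number of measured genes in parentheses, MED12 not drawn), with the list median (black bar) and the median of all rows (red dashed line). The HSP70 and HSP110 list has the highest median, 0.29, and the interferon list the lowest, -0.24.

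The interferon list of 37 measured genes had 36 slopes below 0 (56.1% of all rows) and a median of -0.24. At an unadjusted p under 0.05, 27 of its genes fell (3.43% of all rows). Without the shRNA arm the median was 0.05 and 25 of 37 slopes were above 0 (48.6% of all rows in that fit). The mean of the list relative to GFP was 0.97, 1.35 and 1.11 in the shRNA arrays, between -0.08 and 0.06 with GFP, between 0.22 and 0.38 with the deletion construct and between 0.12 and 0.20 with full-length MED12. No arms overlapped in this mean, but their order, shRNA, deletion construct, full-length MED12 and GFP, was not the arm order.

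Of 24 measured proteasome subunits 23 had a slope above 0 (43.9% of all rows), with a median of 0.14, yet 0 passed with limma, and 6 had a rising slope at an unadjusted p under 0.05 (4.66% of all rows). PSMC2, an ATPase of the regulatory particle, had a slope of 0.44 (adjusted p = 0.446) and arrays of 3.46, 5.11 and 3.70 with shRNA, so the range of its shRNA replicates exceeded each of its steps. The median signal of the list, 5.32, lay in decile 9 of the rows, where 75.8% of slopes were above 0 and the median slope was 0.07. The list's median slope was 0.10 after quantile normalization (23 of 24 above 0, against 47.5% of all rows). It was 0.07 with the array SD as a covariate (19 of 24, against 51.3%) and 0.08 without the 3 narrowest arrays (21 of 24, against 49.6%). Its mean relative to GFP was -0.67, -0.48 and -0.13 in the 3 narrowest arrays and between -0.20 and 0.37 in the others.

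No other gene of Mediator's kinase module passed. CDK8 and CDK19, its kinases, had slopes of 0.12 (limma, adjusted p = 0.776) and 0.001 (0.997). CCNC, the cyclin, had a slope of 0.11 (0.729), MED13 and MED13L, which tie the module to core Mediator, 0.07 (0.865) and 0.05 (0.920), and MED12L, the paralogue of MED12, -0.001 (0.997). The signs of CDK19, CCNC, MED13, MED13L and MED12L turned under other settings. The median over 21 core Mediator genes was 0.03 and 15 had a slope above 0, against 43.9% of all rows. Their median signal, 3.77, lay in decile 7 of the rows, where 50% of slopes were above 0. Of these genes 0 passed and 1 rose at an unadjusted p under 0.05 (4.66% of all rows).

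Markers of HEK293 cells and of other cells overlapped in signal. The 10 HEK293 markers stood between the 49.5th percentile of rows by mean signal (KRT18) and the 96.8th (KRT8), and the 14 measured markers of other cell types between the 7.79th (LYZ, of myeloid cells) and the 67.6th (DES, of muscle). Since signals of different rows also depend on their probes, these percentiles check the label of the cells only loosely. Of the 14 markers of other cell types 13 had slopes below 0 (56.1% of all rows), with a median of -0.08, and 0 fell at an unadjusted p under 0.05. Their median signal, 3.12, lay in decile 4 of the rows, where 33.3% had a slope above 0 and the median slope was -0.03.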

How the data were processed

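The authors deposited log2 values from 1-colour arrays; per the submitters' processing notes they used RMA and Partek with build hg18, with no version stated. The deposited log2 values were used as they stand, with 0 columns left out. Gene symbols came from the platform annotation (1 symbol for 14432 rows, several for 2408, none for 5171), and 14404 of the first were found by Entrez identifier in a RefSeq table. The trend was fitted with limma 3.58.1 in R 4.3.3 on 4 arm means (8 residual and 3.52 prior degrees of freedom), with departure from the line as a moderated F test of the remaining contrasts. Every adjusted p is from limma with Benjamini-Hochberg adjustment over 22011 rows. Precision is limited by the number of arrays, and the median SE of a slope was 0.072. The script was tested on simulated data. Genes named are passing steady genes, filled up to 12 per direction by smallest p, up to 4 per list by smallest p, and the kinase module; 6 falling genes, SKP1, TRMT10A, IFIT2, HSPA13, HSPA14, HSPA4, HSF1 and HSPA5 were added after their values were seen. The members and lists were chosen with earlier results of these data known. The replicate numbers were not taken to pair the arrays, since not every correlation of same-numbered deviations was above 0.1: all 3 were in 2 of 6 pairs of arms (range 0.022 to 0.472, all above 0). Positions on hg18 are not given. Alternative fits changed the error model, the normalization, array weights, the arm scores and the arms or arrays used; their effect is given in the closing section.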

Additional observations from a re-analysis of the deposited data

How the results depend on the processing

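Alternatives moved the count of passing rows, which was 17 in the reported fit. It was 11 with straight-line regression (all rising), 30 after quantile normalization, 29 with the array SD as a covariate, 8 with MED12's own level as arm scores (all rising, among them 4 of the 5 steady genes but not HSPA4L, nor SKP1, nor any of the 6 falling interferon genes), 3440 with array weights (shRNA replicate 3 took a weight of 8.77, so that fit leans on 1 array), and 4, 8 and 3 without the shRNA, deletion and full-length arm. With the replicate number as a block it was 26, of which 15 were among the 17, although the pairing does not meet the rule used; TENT5C, DNAJB4, POLR1F, MRPL18, UBB and BST2 passed there, and OAS2 and IFITM1 were lost. Leaving out 1 array gave 8 to 26. Departure from the line, 4 rows, became 12 with quantile normalization, 327 with array weights and 13 with the SD covariate, and 1 to 5 without 1 array. The share of steady rows, 13.6%, was 33.5%, 40.5%, 43.6% and 40.8% without the shRNA, GFP, deletion and full-length arm, where only 3 means have to be in order, 8.7% without the 3 narrowest arrays and 8.57% to 18% without 1 array. The median slope of the interferon list, -0.24, was -0.16 with MED12 level as scores, 0.048 without the shRNA arm, -0.30 without GFP and -0.41 without full-length MED12, and -0.27 to -0.21 without 1 array. That of the heat shock lists, 0.12, stayed between 0.08 and 0.15 in every alternative run. Steady falling genes with 1 symbol, of which 0 passed in the reported fit, passed in 4 of the alternatives: 1 gene with quantile normalization, 1 with the replicate block, 8 without the GFP arm and 289 with array weights. Without GFP only 3 means have to be in order, and the 8 include the 6 interferon genes whose GFP mean broke the order of 4.

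Without the shRNA arm the sign turned for IFI44 (0.26), RSAD2 (0.29), NMI (0.12), IFITM1 (0.048) and CCNC (-0.013), and without the full-length arm for HSP90AA1 (-0.0093). With the array SD as a covariate and without the narrowest arrays it turned for MED13 (-0.040 and -0.0091) and MED13L (-0.062 and -0.021), and for MED13L in 1 fit without 1 array (range -0.031 to 0.11). CDK19 gave -0.041 with quantile normalization, -0.030 with array weights, -0.0046 with the SD covariate, -0.0067 with MED12 level, -0.039 without the shRNA arm, -0.019 without the narrowest arrays and -0.028 to 0.035 without 1 array. MED12L gave 0.017, 0.0043, 0.036 and 0.0047 under the first 4 of these, 0.077 without the full-length arm, 0.051 without the narrowest arrays and -0.046 to 0.047 without 1 array. The cause of these changes was not tested.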

Other observations

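Some stress genes outside the chaperone lists also stood among the steady genes without passing. DDIT4, an inhibitor of mTORC1 and a target of ATF4, had means of 3.68, 4.15, 4.18 and 4.96 and a slope of 0.39 (limma, adjusted p = 0.204), and the largest of its steps, 0.78, lay between the deletion construct and full-length MED12. Of 25 measured genes of the ATF4 response 20 had a slope above 0 (43.9% of all rows), with a median of 0.08. At an unadjusted p under 0.05, 7 of them rose (4.66% of all rows). The median signal of the list, 4.14, lay in decile 8 of the rows, where 60.5% of slopes were above 0. EGR1, an immediate early transcription factor, had means of 5.77, 5.79 and 5.92 in the first 3 arms and of 6.46 with full-length MED12, with a slope of 0.22 (0.242). JUN, which was not steady, stood at 4.30 with shRNA and between 4.73 and 4.90 in the other arms. EGR1 and JUN had the smallest trend p among 25 measured immediate early genes. Of these 25, 17 had a slope above 0 (43.9% of all rows) and 8 below, with a median of 0.05. At an unadjusted p under 0.05, 6 rose (4.66% of all rows) and 0 fell. Means rose steadily in 3 and fell steadily in 2 (5.80% and 7.85% of all rows).

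The median slope, -0.01 over all rows, was 0.09 over 37 genes of oxidative phosphorylation, 0.06 over 32 of replication, 0.01 over 31 of G2 and mitosis, 0.01 over 22 of lipid synthesis, -0.04 over 22 neuronal targets of REST, -0.05 over 15 Hedgehog genes and -0.0035 over 24 Wnt genes, and 0 genes of these lists passed with limma. At an unadjusted p under 0.05 the oxidative phosphorylation list had 5 rising genes, the replication list 3, the G2 and mitosis list 1 and the Wnt list 2 (4.66% of all rows), and none of these 7 lists had a falling one. With the array SD as a covariate the median turned to -0.04 for G2 and mitosis, -0.01 for lipid synthesis, 0.02 for the REST targets and 0.03 for the Wnt genes, and was 0.05 for oxidative phosphorylation and 0.01 for replication. The median of the Hedgehog genes was then -0.02. In the reported fit the median signal of the oxidative phosphorylation list, 5.02, lay in decile 9 of the rows, where the median slope was 0.07. That of the replication list, 4.18, lay in decile 8, where the median slope was 0.02.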
